A study of Rattus norvegicus with 9 samples.

Results

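The Notch pathway was followed in cultured rat fibroblasts (Fb) through 10 genes, taken from the tables by symbol, with no threshold on their values: the receptors *Notch1*, *Notch2* and *Notch4*, the ligands *Jag1*, *Jag2*, *Dll1* and *Dll4*, and the target genes *Hes1*, *Hey1* and *Heyl*. Each had 1 row among the 32883 genes of the deposited tables. Fb were grown from the epineurium of the sciatic nerve, its outer sheath (Fb-Epn), from the nerve parenchyma, the tissue inside that sheath (Fb-Par), and from abdominal skin (Fb-Skn), with 3 RNA libraries of each type. All came from untreated wild-type adult male Lewis rats and were grown in medium with serum, with 1 passage after 3 to 4 days. Both nerve types came from the same pair of rats and the skin from another animal, so the 3 libraries of a type were not 3 separate animals, and tissue and animal could not be told apart between nerve and skin. No source used here says that the libraries were separate cultures, so the p-values measure only the spread between these libraries, which may be technical.

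Notch receptors are single-pass membrane proteins that are activated by Delta-like and Jagged ligands on a neighbouring cell. Binding exposes the receptor to cleavage by an ADAM protease and then by gamma-secretase, and the freed intracellular domain enters the nucleus, where it joins the DNA-binding protein RBPJ and turns on repressors of the Hes and Hey families. In blood vessels the pathway is known for its part in the identity of endothelial cells and of the mural cells around them.

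Promoter sequence was available for 8 of the 10 genes, from RefSeq on the assembly GRCr8, and was read over the 250 bases before the annotated start. *Hey1* and *Dll4* had no entry. Both strands were searched for TGGGAA, the core that RBPJ recognises, for GTGGGAA, a longer form that contains the core, and for CACGAG, the N box that Hes proteins bind. TGGGAA stood in 22.1% of 33469 such windows over all genes, GTGGGAA in 5.27% and CACGAG in 5.39%. The window of *Hes1* held GTGGGAA from 124 to 118 bases before the start, a separate TGGGAA from 109 to 104, and CACGAG from 171 to 166 and from 97 to 92. That of *Dll1* held the longer form on the other strand from 185 to 179 bases before the start and TGGGAA from 82 to 77. In *Notch4* the core stood on the other strand at 2 places, and none of the motifs was found in the windows of *Notch1*, *Notch2*, *Jag1*, *Jag2* or *Heyl*. A match is a description of the letters and not of binding. The windows of *Hes1* and *Dll1* are printed because they hold the longer form, and that of *Heyl* as a target without any match, with the matches in capitals and each sequence read 5′ to 3′ along the strand of its gene.
Hes1, chr11:84213046-84213295, minus strand: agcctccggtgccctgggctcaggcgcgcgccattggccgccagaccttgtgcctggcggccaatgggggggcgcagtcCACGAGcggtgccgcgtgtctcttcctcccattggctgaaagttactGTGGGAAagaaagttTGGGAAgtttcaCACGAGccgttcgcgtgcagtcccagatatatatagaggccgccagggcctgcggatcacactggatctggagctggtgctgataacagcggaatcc
Heyl, chr5:140793021-140793270, plus strand: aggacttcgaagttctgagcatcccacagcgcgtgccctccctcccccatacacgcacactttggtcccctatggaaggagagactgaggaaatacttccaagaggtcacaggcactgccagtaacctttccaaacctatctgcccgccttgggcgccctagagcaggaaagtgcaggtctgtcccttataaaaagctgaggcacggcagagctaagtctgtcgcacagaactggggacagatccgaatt
Dll1, chr1:64993275-64993524, minus strand: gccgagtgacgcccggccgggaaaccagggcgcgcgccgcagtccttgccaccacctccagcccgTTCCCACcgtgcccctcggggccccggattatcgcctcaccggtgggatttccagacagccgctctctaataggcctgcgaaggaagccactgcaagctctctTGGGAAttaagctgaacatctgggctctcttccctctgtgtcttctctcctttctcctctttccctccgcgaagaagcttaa

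The libraries held 10084584 to 12310506 counts. Levels are given below as the deposited TPM (transcript counts scaled by gene length and library) and as mean ± SD with n = 3, and differences as log2 fold changes of edgeR's quasi-likelihood test on the raw counts with its standard error (SE) and Benjamini-Hochberg adjusted p over the 13273 genes tested. An adjusted p under 0.01 is a call, and a called gene with a log2 fold change beyond 2 in either direction is a DE gene. An exact permutation test on a single gene could not go below p = 0.10 with 3 libraries against 3. The 3 comparisons share libraries and are not independent of each other. In bulk RNA, fewer cells of a type and less RNA per cell cannot be told apart.

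The label of the cells was checked first. Of 7 fibroblast genes listed, 6 had a row, and each had a mean TPM of at least 1 in every type, with a summed TPM of 30979 to 31195 for Fb-Epn, 25824 to 26860 for Fb-Par and 29599 to 30706 for Fb-Skn. Genes of other cell types were measured beside them and moved with the types. The 7 Schwann cell genes summed to a TPM of 186 to 198 for Fb-Epn, 255 to 262 for Fb-Par and 10.5 to 13.2 for Fb-Skn, where *Sox10*, *Erbb3* and *Cdh19* had no count. The 6 macrophage genes summed to 223 to 250, 56.0 to 60.8 and 18.3 to 20.4 in the same order. All 6 were called higher in Fb-Epn than in either other type, beside 20.2% of all tested genes against Fb-Par and 23.0% against Fb-Skn. The 9 endothelial genes summed to 22.7 to 24.9, 18.3 to 20.2 and 7.16 to 8.41, with *Cldn5* at 0 counts in Fb-Par and *Cdh5*, *Emcn* and *Cldn5* at 0 in Fb-Skn. The 6 keratinocyte genes summed to a TPM between 2.11 and 4.16 in every library, most of it from *Krt10*, with *Krt1* at 0 counts throughout. *Krt14* differed by type, with 17, 9 and 10 counts in the Fb-Skn libraries, none in Fb-Epn and 1 in all of Fb-Par.

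Of the 10 Notch genes, 8 passed the filter on low counts and were tested. *Jag2* and *Dll4* were not. A gene that passes only through the type where it is high has to differ, so the following counts are a description. *Dll1* passed through Fb-Skn alone and *Hey1* through Fb-Par alone. Their adjusted p values against the lower types are therefore a description too, as are those of pathway genes that are low in the other types. For Fb-Epn against Fb-Skn, 7 of these 8 were called, 4 higher and 3 lower in Fb-Epn, where 43.9% of all tested genes were called (23.0% higher, 20.9% lower), and 3 were DE genes against 8.44% of all tested genes. Between Fb-Epn and Fb-Par, 6 were called, 1 higher and 5 lower in Fb-Epn, against 38.8% (20.2% higher, 18.6% lower), and 3 were DE genes against 6.48%. Between Fb-Par and Fb-Skn all 8 tested genes were called, 5 higher and 3 lower in Fb-Par, against 45.6% (23.2% higher, 22.4% lower), and 4 were DE genes against 8.54%.

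**Figure D1:**
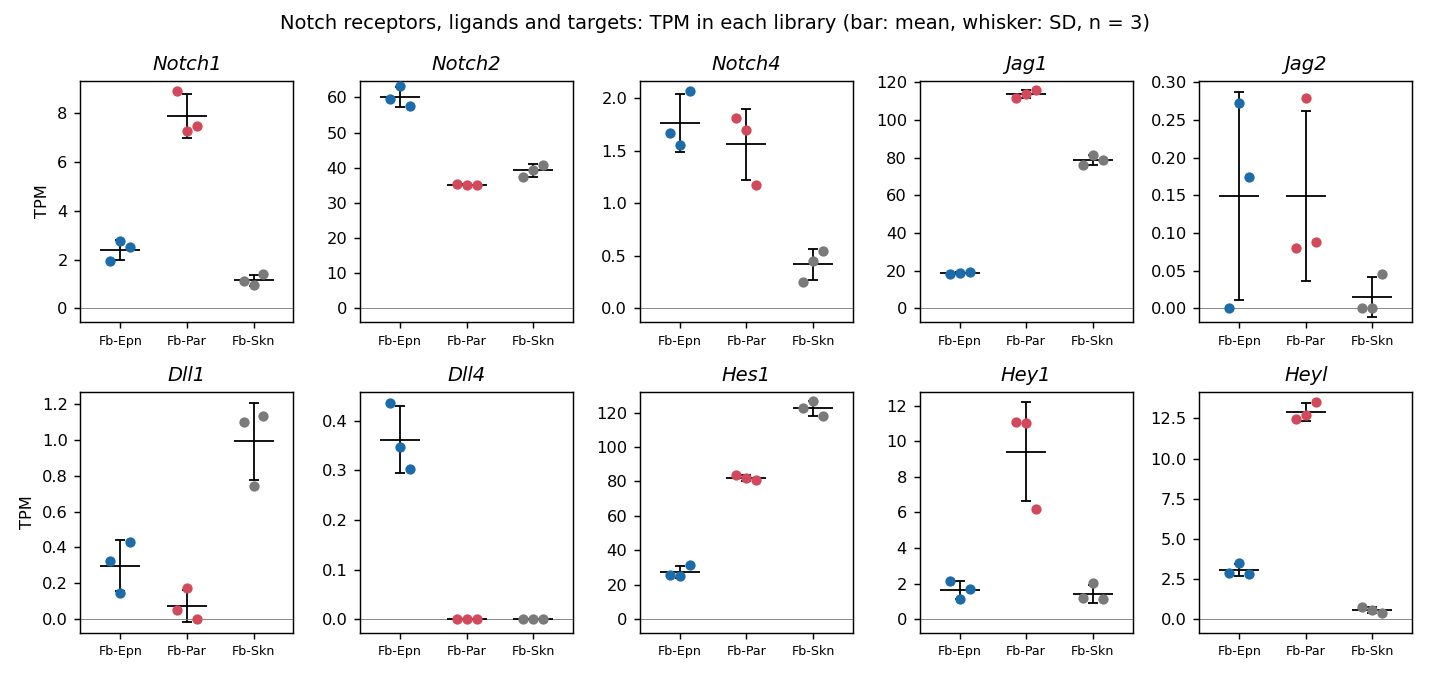
TPM of each of the 10 Notch genes, on a linear axis scaled to each gene, with 1 point per library, 3 libraries per type, and their mean and SD. *Jag1*, *Hes1* and *Notch2* stand far above the other genes, and *Dll4* is at 0 in all 6 Fb-Par and Fb-Skn libraries.

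*Notch2*, the broadly expressed receptor of the family (chr2:200187179-200320215 of rn6, plus strand), was the most abundant of the 3 receptors in every type. Its TPM was 59.5, 63.2 and 57.5 for Fb-Epn, 35.3, 35.1 and 35.1 for Fb-Par, and 37.3, 39.5 and 40.9 for Fb-Skn. No library of one type reached into another, with Fb-Epn highest and Fb-Skn just above Fb-Par. The log2 fold change was 0.48 (SE 0.041, adjusted p = 1.6e-07) for Fb-Epn against Fb-Skn and 0.78 (SE 0.041, adjusted p = 7.1e-10) for Fb-Epn against Fb-Par. Between Fb-Par and Fb-Skn it was -0.31 (SE 0.042, adjusted p = 1.9e-05), and this call was lost when log2(TPM + 1) was tested with limma (-0.15, adjusted p = 0.034).

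*Notch1*, the receptor first linked to T cell leukaemia (chr3:3905453-3951025, minus strand), was highest in Fb-Par. Its TPM was 1.94, 2.76 and 2.50 for Fb-Epn, 8.92, 7.26 and 7.47 for Fb-Par, and 1.14, 0.949 and 1.40 for Fb-Skn. The 3 types did not overlap, and Fb-Par lay well above the other two. The log2 fold change was 2.61 (SE 0.16, adjusted p = 2.7e-09, 6.11-fold) for Fb-Par against Fb-Skn, -1.70 (SE 0.14, adjusted p = 1.4e-07) for Fb-Epn against Fb-Par and 0.91 (SE 0.17, adjusted p = 3.6e-04) for Fb-Epn against Fb-Skn.

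*Notch4*, a receptor known mainly from endothelial cells (chr20:4329811-4353785, plus strand), was low everywhere and lowest in skin. It had a TPM of 1.66, 1.55 and 2.07 for Fb-Epn, 1.81, 1.70 and 1.18 for Fb-Par, and 0.255, 0.455 and 0.548 for Fb-Skn, the last from 9, 14 and 17 counts. Fb-Epn and Fb-Par overlapped, and both lay above every Fb-Skn library. Set against Fb-Skn, it had a log2 fold change of 1.94 (SE 0.29, adjusted p = 4.6e-05) in Fb-Epn and 1.75 (SE 0.29, adjusted p = 1.2e-04) in Fb-Par. Between the nerve types it was 0.18 with a 95% interval of -0.34 to 0.71 (adjusted p = 0.57), which leaves a modest difference in either direction undetected. On the opposite strand the gene overlaps *LOC103689965*, which had 148, 157 and 156 counts for Fb-Epn, 95, 147 and 55 for Fb-Par and 6, 5 and 8 for Fb-Skn. The libraries were directional, but the strand setting of the counting is not given in the sources used here, so how reads were divided between both genes was not tested. The endothelial genes *Cdh5* and *Tie1* had a mean TPM of 1.78 and 4.19 for Fb-Epn, 0.0968 and 0.682 for Fb-Par, and 0 and 0.0153 for Fb-Skn. The endothelial list did not move as a whole: *Tek* (8.37, 10.2 and 1.20 in the same order) and *Erg* (5.65, 6.18 and 1.63) had their highest mean in Fb-Par, *Flt1* (2.42, 1.71 and 4.86) in Fb-Skn and the other 6 in Fb-Epn. The part of such cells in the *Notch4* result was not tested.

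The make-up of the receptors is a description of the same values. Of the summed TPM of *Notch1*, *Notch2* and *Notch4*, *Notch2* gave 93.5% for Fb-Epn, 78.9% for Fb-Par and 96.1% for Fb-Skn, while *Notch1* gave 3.73%, 17.6% and 2.84%. The sum itself was 64.2 ± 2.91 for Fb-Epn, 44.6 ± 1.24 for Fb-Par and 40.8 ± 2.08 for Fb-Skn. In log2(TPM + 1) the median log2 fold change of all tested genes was 0.123 for Fb-Par against Fb-Skn. The order of Fb-Par and Fb-Skn in this sum may therefore depend on the scaling. The fourth mammalian receptor, *Notch3* (chr7:14138495-14189688, minus strand), is not among the 10 genes but changes this picture. Its TPM was 7.40, 6.36 and 5.27 for Fb-Epn, 72.4, 71.7 and 73.3 for Fb-Par, and 1.15, 1.87 and 1.63 for Fb-Skn. It shares its place with *AABR07055864.2* on the opposite strand, which had 13 to 25, 164 to 218 and 0 to 7 counts in the same order. *AABR07055864.1*, which overlaps *Notch3* on the same strand, had no count in any library. With *Notch3* in the sum, *Notch2* gave 85.1% ± 0.63 for Fb-Epn, 30.0% ± 0.25 for Fb-Par and 92.6% ± 0.86 for Fb-Skn, and *Notch3* gave 61.9% ± 0.74 in Fb-Par.

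*Jag1*, a ligand of the Jagged class (chr3:130079361-130114770, minus strand), carried nearly all the RNA of the 4 ligands among the Notch genes. Other ligands such as *Dlk1* and *Dner*, given below, are not in this sum. Its TPM was 18.5, 18.8 and 19.1 for Fb-Epn, 111.4, 113.7 and 115.7 for Fb-Par, and 76.3, 81.3 and 78.8 for Fb-Skn. The types were far apart relative to their spread, with Fb-Epn lowest. The log2 fold change was -2.58 (SE 0.039, adjusted p = 6.3e-16, 5.99-fold lower) for Fb-Epn against Fb-Par and -2.20 (SE 0.039, adjusted p = 3.8e-15, 4.61-fold lower) for Fb-Epn against Fb-Skn. Fb-Par and Fb-Skn differed by 0.38 (SE 0.035, adjusted p = 3.5e-07). *Jag1* gave 95.9% of the summed TPM of the 4 ligands for Fb-Epn, 99.8% for Fb-Par and 98.7% for Fb-Skn.

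*Dll1*, a ligand of the Delta-like class (chr1:57318708-57327379, minus strand), was highest in skin at a low level. Counts were 6, 3 and 8 for Fb-Epn, 1, 3 and 0 for Fb-Par, and 22, 13 and 20 for Fb-Skn, for a mean TPM of 0.299 ± 0.144, 0.0739 ± 0.0885 and 0.992 ± 0.216. Every Fb-Skn library lay above every nerve library, and Fb-Epn and Fb-Par overlapped. Since *Dll1* passed the filter on low counts only through Fb-Skn, its calls against Fb-Skn are a description, also with libraries left out. The summed counts of Fb-Skn and Fb-Par, scaled to library size, stood in a ratio of 15.5 with an exact 95% interval of 5.72 to 58.9 for counting error only, and the fitted log2 fold change of Fb-Par against Fb-Skn was -3.82 (SE 0.65, adjusted p = 1.6e-04). It ran from -5.08 without Fb-Par library 2 to -3.28 without Fb-Par library 3, was called each time a library was left out, and was -0.89 in limma on log2(TPM + 1), which understates the change of low genes. For Fb-Epn against Fb-Skn it was -1.87 (SE 0.50, adjusted p = 0.0058), a call that was lost when Fb-Epn library 1 (adjusted p = 0.019), Fb-Epn 2 (0.034), Fb-Skn 1 (0.028), Fb-Skn 2 (0.010) or Fb-Skn 3 (0.026) was left out. Fb-Epn against Fb-Par gave 1.95 with a 95% interval of 0.26 to 3.64 and did not pass (adjusted p = 0.054), with 3.21 (adjusted p = 0.020) without Fb-Par library 2 and 1.41 (0.16) without Fb-Par library 3.

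*Dll4*, a ligand known for its place at the tip of sprouting vessels (chr3:111135021-111145986, plus strand), had 10, 9 and 7 counts in Fb-Epn and none in any library of the other types. Taking 3 counts per library as the most that a count of 0 allows, its level for Fb-Epn was at least 2.81-fold higher than for Fb-Par and at least 2.50-fold higher than for Fb-Skn. When all genes with at least 1 count were tested in edgeR, its adjusted p was 3.4e-04 and 4.7e-04 in the same order. Of the 9 endothelial genes, *Tek* and *Erg* had their highest mean in Fb-Par, *Flt1* in Fb-Skn and the other 6 in Fb-Epn, as given above. Among these 6, *Cldn5* also had counts in Fb-Epn only (4, 5 and 5). The part of endothelial cells in the *Dll4* result was not tested. *Jag2* (chr6:137711155-137733026, minus strand), a further Jagged ligand, had 0, 7 and 4 counts for Fb-Epn, 2, 6 and 2 for Fb-Par, and 0, 0 and 1 for Fb-Skn. In the same wider test it was called in none of the comparisons, with adjusted p values of 0.089, 1 and 0.099 for Fb-Epn against Fb-Skn, Fb-Epn against Fb-Par and Fb-Par against Fb-Skn. The ratio of its summed counts, scaled to library size, was 9.49 for Fb-Epn to Fb-Skn (11 counts to 1, exact 95% interval 1.38 to 408) and 8.88 for Fb-Par to Fb-Skn (10 counts to 1, 1.26 to 385), for counting error only, without the spread between libraries. *Jag2* overlaps *AABR07065617.1* on the same strand, which had no count in any library. How reads in this overlap were counted was not tested.

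**Figure D2:**
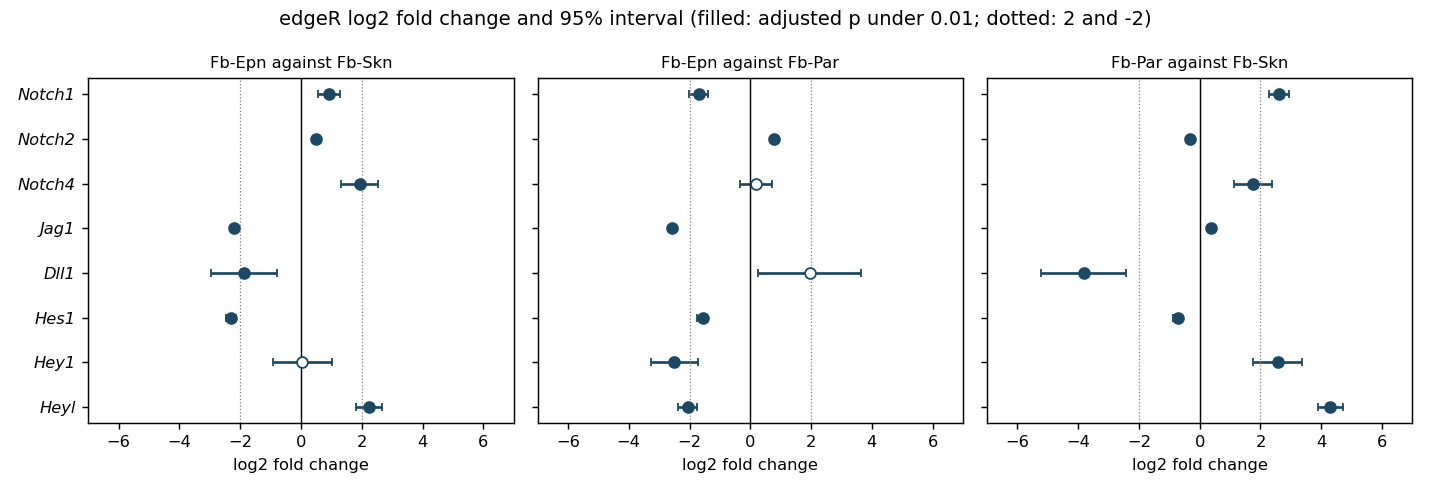
edgeR log2 fold change (x axis) with its 95% interval for the 8 Notch genes tested, by comparison, with filled points for an adjusted p under 0.01. *Jag1* and *Hes1* have the narrowest intervals among the large differences, while those of *Dll1* and *Hey1* are wide.

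*Hes1*, a repressor that is a direct Notch target in many tissues (chr11:74312806-74315248, minus strand), was the most abundant of the 3 targets. Its TPM was 25.9, 25.0 and 31.4 for Fb-Epn, 84.0, 81.9 and 80.6 for Fb-Par, and 122.4, 126.9 and 117.8 for Fb-Skn. The types did not overlap and rose in that order. The log2 fold change was -2.30 (SE 0.076, adjusted p = 3.1e-12, 4.92-fold lower) for Fb-Epn against Fb-Skn, -1.57 (SE 0.078, adjusted p = 3.5e-10) for Fb-Epn against Fb-Par and -0.72 (SE 0.068, adjusted p = 4.2e-07) for Fb-Par against Fb-Skn. The promoter with both forms of the RBPJ motif and 2 N boxes, printed above, belongs to this gene.

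*Heyl*, a Hey family repressor known from vascular smooth muscle (chr5:140923914-140940905, plus strand), had another order of levels. It had a TPM of 2.86, 3.48 and 2.83 for Fb-Epn, 12.5, 12.7 and 13.5 for Fb-Par, and 0.788, 0.542 and 0.403 for Fb-Skn. Again the types did not overlap, but here skin was lowest. The log2 fold change was 4.30 (SE 0.18, adjusted p = 5.7e-11, 19.7-fold) for Fb-Par against Fb-Skn, 2.24 (SE 0.21, adjusted p = 3.5e-07) for Fb-Epn against Fb-Skn and -2.06 (SE 0.14, adjusted p = 2.0e-08) for Fb-Epn against Fb-Par, so *Heyl* was a DE gene in every comparison.

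*Hey1*, its relative (chr2:95320283-95322696, plus strand), was high in Fb-Par alone among the 3 types. Counts were 10, 6 and 8 for Fb-Epn, 57, 49 and 29 for Fb-Par, and 6, 9 and 5 for Fb-Skn, for a mean TPM of 1.64 ± 0.498, 9.42 ± 2.80 and 1.43 ± 0.505. Fb-Par lay above both other types, which overlapped. Since *Hey1* passed the filter on low counts only through Fb-Par, its calls against Fb-Par are a description. The log2 fold change was 2.56 (SE 0.37, adjusted p = 3.9e-05) for Fb-Par against Fb-Skn and -2.51 (SE 0.36, adjusted p = 4.3e-05) for Fb-Epn against Fb-Par. Fb-Epn against Fb-Skn gave 0.05 with a 95% interval of -0.93 to 1.03 (adjusted p = 0.93), and its sign changed when Fb-Epn library 1, Fb-Skn 1 or Fb-Skn 3 was left out.

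**Figure D3:**
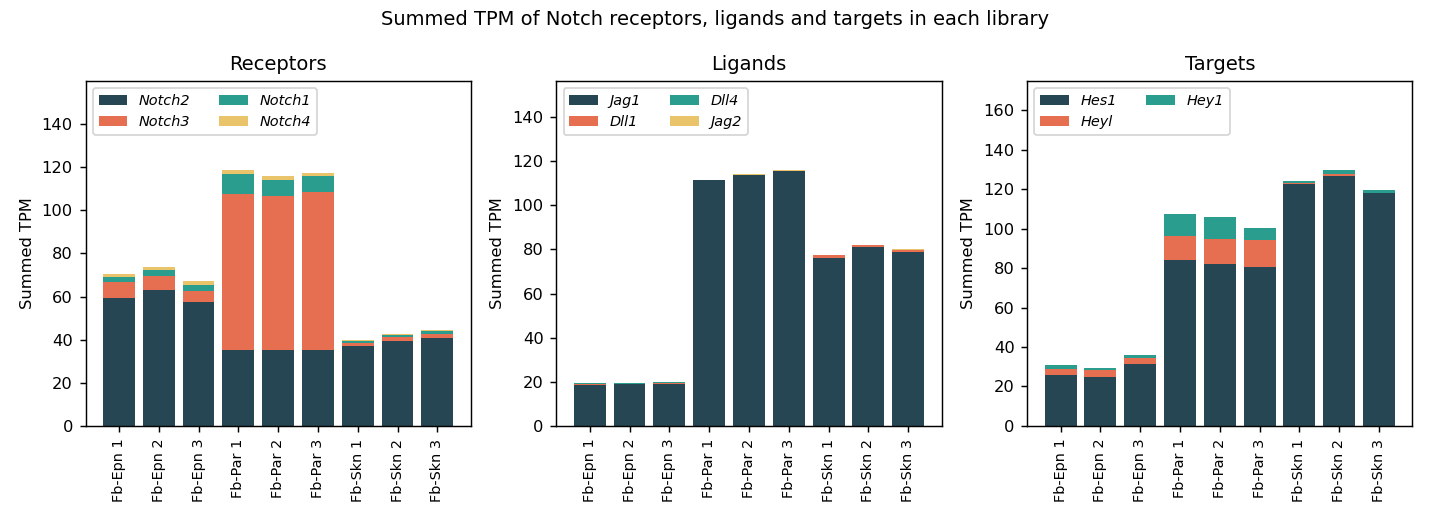
Stacked bars of TPM in each of the 9 libraries (y axis, from 0) for the 4 receptors with *Notch3*, the 4 ligands and the 3 targets, with 1 colour per gene. Ligands and targets are lowest in the Fb-Epn libraries (19.7 and 32.1 on average), and *Notch3* makes the receptor bars of Fb-Par the tallest (117.1 on average, against 70.6 in Fb-Epn and 42.3 in Fb-Skn).

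By role, then, the types had different orders. The summed TPM of the 4 ligands was 19.7 ± 0.373 for Fb-Epn, 113.8 ± 2.15 for Fb-Par and 79.8 ± 2.34 for Fb-Skn, and that of the 3 targets was 32.1 ± 3.29, 104.5 ± 3.74 and 124.4 ± 5.09. *Hes1* gave 85.3% ± 1.9 of the target sum for Fb-Epn, 78.7% ± 1.5 for Fb-Par and 98.4% ± 0.35 for Fb-Skn. *Heyl* and *Hey1* together made up the rest, with *Heyl* at 9.64%, 12.4% and 0.463%. Genes of mural cells, the pericytes and smooth muscle of vessel walls, had their own order beside these values. Of the 9 listed, 7 were called higher and 1 lower in Fb-Par than Fb-Skn, beside 23.2% and 22.4% of all tested genes. In Fb-Epn 1 was called higher and 6 lower than in Fb-Par (20.2% and 18.6% of all tested genes). Against Fb-Skn, 4 were higher and 5 lower in Fb-Epn (23.0% and 20.9%), and *Rgs5* and *Kcnj8* had no count in Fb-Skn. Their summed TPM was 3474 to 3707 for Fb-Epn, 5851 to 6012 for Fb-Par and 10625 to 11081 for Fb-Skn, an order set by *Acta2*, the smooth muscle actin, with a mean TPM of 3357, 5051 and 10310. *Rgs5*, a pericyte gene, had a mean TPM of 4.49 in Fb-Epn and 14.9 in Fb-Par, and *Cspg4*, which encodes the proteoglycan NG2, had 8.48 for Fb-Epn, 73.1 for Fb-Par and 26.4 for Fb-Skn. The list did not move as a whole: *Des* had its highest mean TPM in Fb-Epn (1.38, against 0.389 in Fb-Par and 0.121 in Fb-Skn). *Kcnj8* and *Abcc9* were not called between the nerve types. Of the 7 Schwann cell genes, 6 were called lower and 0 higher in Fb-Epn than Fb-Par, beside 18.6% and 20.2% of all tested genes. All 7 were called higher in Fb-Par than Fb-Skn, beside 23.2%. The part of mural cells or of Schwann cells in the levels of *Heyl*, *Hey1*, *Notch1* and *Notch3* was not tested.

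The rest of the pathway was described with a list of 61 genes, of which 59 had a row and 52 were tested. Between Fb-Epn and Fb-Skn 19 were called higher and 15 lower in Fb-Epn, or 65.4% of those tested against 43.9% of all tested genes, with a median absolute log2 fold change of 0.29 against 0.33 over all tested genes. Between Fb-Epn and Fb-Par 12 were higher and 19 lower in Fb-Epn (59.6% against 38.8% of all genes, median absolute 0.30 against 0.28), and between Fb-Par and Fb-Skn 23 were higher and 12 lower in Fb-Par (67.3% against 45.6% of all genes, median absolute 0.39 against 0.34). The median signed log2 fold change of the list was 0.10, -0.15 and 0.10, and that of all tested genes -0.0028, -0.0002 and -0.0121, in the same order. DE genes numbered 2, 5 and 7 of the 52, beside 8.44%, 6.48% and 8.54% of all tested genes.

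Among the other receptors and ligands, *Notch3* differed most, with a log2 fold change of 5.41 (SE 0.12, adjusted p = 2.4e-14, 42.5-fold) for Fb-Par against Fb-Skn, -3.50 (SE 0.095, adjusted p = 3.9e-13) for Fb-Epn against Fb-Par and 1.91 (SE 0.14, adjusted p = 3.9e-08) for Fb-Epn against Fb-Skn. *Dlk1*, a non-canonical ligand that lacks the domain by which the others bind, had the opposite preference between the nerve types, with a mean TPM of 8.21 for Fb-Epn, 1.74 for Fb-Par and 0.174 for Fb-Skn. It was called in all 3 comparisons, with 5.37 (adjusted p = 1.5e-06) for Fb-Epn against Fb-Skn. Its relative *Dlk2* was lower in Fb-Epn than in Fb-Skn (-2.05, adjusted p = 0.0032). The microfibril proteins *Mfap2* and *Mfap5*, which can bind Jagged ligands and Notch, parted: *Mfap2* was higher in Fb-Par than Fb-Epn (Fb-Epn against Fb-Par -3.03, adjusted p = 1.2e-07), and *Mfap5* was lower there (1.08, adjusted p = 1.9e-12). *Dner*, a transmembrane ligand known from neurons, was at a higher level in Fb-Epn than Fb-Par (1.48, adjusted p = 1.7e-04).

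Of the 9 receptor-cleavage genes tested, 66.7% were called for Fb-Epn against Fb-Skn (4 higher, 2 lower), 44.4% for Fb-Epn against Fb-Par (4 lower) and 55.6% for Fb-Par against Fb-Skn (5 higher), beside 43.9%, 38.8% and 45.6% of all tested genes. Those lower in Fb-Epn than Fb-Par, where 18.6% of all tested genes were called lower, were *Adam10*, *Adam17*, *Ncstn* and *Psenen*, all named after their values were seen. The differences were small: *Adam10*, the protease of the first ligand-induced cut, had a log2 fold change of 0.70 (adjusted p = 3.5e-08) for Fb-Par against Fb-Skn and -0.49 (adjusted p = 1.8e-06) for Fb-Epn against Fb-Par. Of 15 trafficking and ubiquitin genes, 66.7% were called for Fb-Epn against Fb-Skn (4 higher, 6 lower), 73.3% for Fb-Epn against Fb-Par (2 higher, 9 lower) and 80.0% for Fb-Par against Fb-Skn (9 higher, 3 lower), beside the same shares of all genes. *Dtx4*, a Deltex ubiquitin ligase, had a mean TPM of 4.41 for Fb-Epn, 19.8 for Fb-Par and 3.48 for Fb-Skn, with a log2 fold change of 2.35 (adjusted p = 4.5e-09) for Fb-Par against Fb-Skn. *Neurl1* and *Neurl1b*, ubiquitin ligases that act on ligands, were higher in Fb-Par than Fb-Skn by 2.60 (adjusted p = 4.5e-06) and 2.91 (adjusted p = 4.2e-04). *Rbpj*, the DNA-binding partner, also named after its values were seen, had its lowest mean TPM in Fb-Par, at 46.4 against 77.2 in Fb-Epn and 62.2 in Fb-Skn, and Fb-Par against Fb-Skn gave -0.57 (adjusted p = 2.4e-07).

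Of 7 genes tested from a list of other targets and Hes family relatives, 57.1% were called in each comparison. Whether Notch acts on the genes of this list in these cells was not tested. The shares of all tested genes were 43.9% for Fb-Epn against Fb-Skn, 38.8% for Fb-Epn against Fb-Par and 45.6% for Fb-Par against Fb-Skn. *Hey2*, the third Hey family repressor, had the order of *Hey1*. Its TPM was 5.66, 7.18 and 8.47 in Fb-Par, with a mean of 0.742 in Fb-Epn and 0.618 in Fb-Skn, and its log2 fold change was 3.34 (SE 0.30, adjusted p = 2.8e-07) for Fb-Par against Fb-Skn and -3.24 (SE 0.29, adjusted p = 3.2e-07) for Fb-Epn against Fb-Par. Between Fb-Epn and Fb-Skn it was 0.10 (SE 0.38, adjusted p = 0.85). *Myc*, a growth regulator that Notch activates in T cells, was instead highest in Fb-Epn, with 1.41 (adjusted p = 6.2e-11) against Fb-Par and 1.62 (adjusted p = 1.4e-11) against Fb-Skn. *Bhlhe40*, a repressor of the circadian system, was higher in both nerve types than in Fb-Skn, by 1.89 in Fb-Epn (adjusted p = 8.6e-12) and 1.58 in Fb-Par (adjusted p = 6.3e-11). The rest of the tested genes of this list, named after their values were seen, went other ways. *Hes6* had its highest mean TPM in Fb-Skn (32.9 for Fb-Epn, 38.8 for Fb-Par and 54.6 for Fb-Skn). *Ccnd1* was lowest in Fb-Par (42.1, 25.4 and 57.5 in the same order), and *Hes7* and *Bhlhe41* were called in no comparison. *Hes3* was at 0 in every library.

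**Figure D4:**
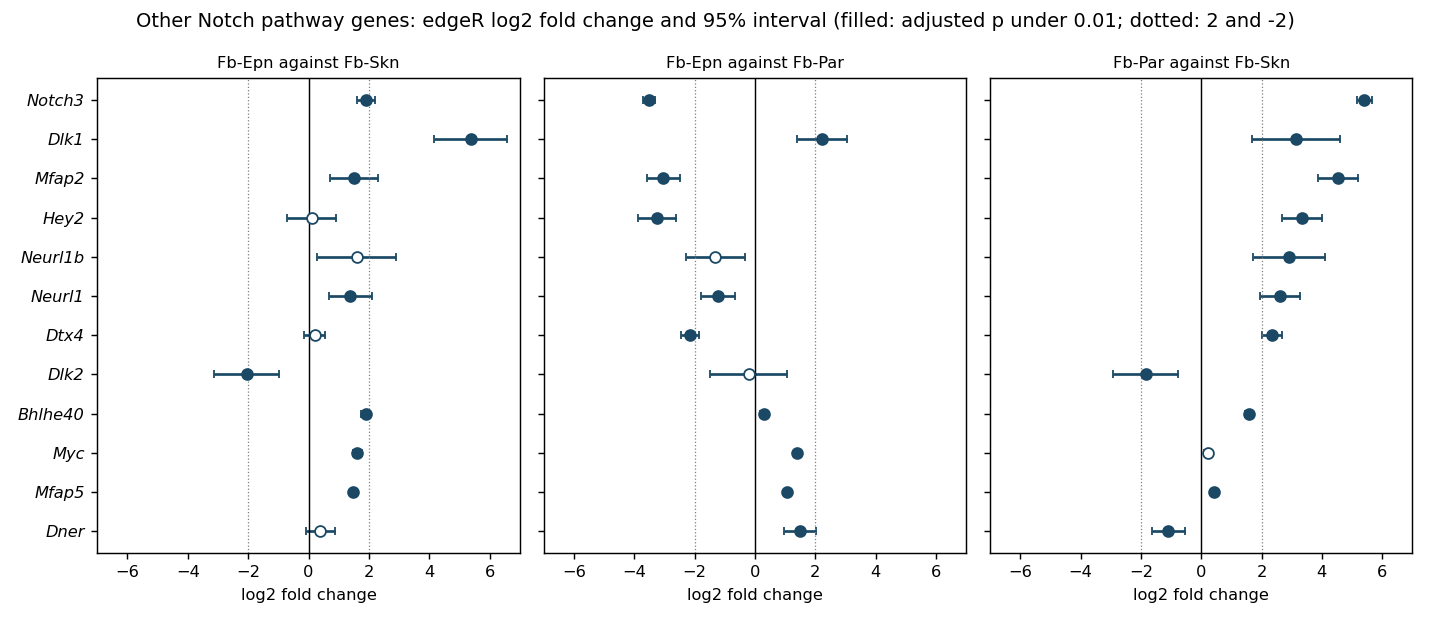
edgeR log2 fold change (x axis) with its 95% interval for the 12 other pathway genes named by the rule on size, by comparison, with filled points for an adjusted p under 0.01. *Notch3*, *Mfap2*, *Hey2* and *Dtx4* lie below -2 for Fb-Epn against Fb-Par and above 2 for Fb-Par against Fb-Skn.

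The genes whose levels ran most like those of a Notch gene were found by Pearson's r of log2(TPM + 1) over the 9 libraries, which fall into 3 types, so a high r says mainly that the type means have the same order and spacing. For *Jag1* they were *Timp3* (r = 0.9997), *Tmeff2* (0.9993) and *LOC684797* (0.9985), and for *Hes1* *Cnn3* (0.9981), *Adamts2* (0.9960) and *Idh1* (0.9955). *Heyl* ran most like *Thbd* (0.9975), *AABR07004228.1* (0.9970) and *Lhfpl6* (0.9964), and 49 genes had an r over 0.99 with it. The nearest to *Notch1* were *Kazald1* (0.9956), *Col20a1* (0.9943) and *St6gal1* (0.9941), and to *Notch2* *Hjurp* (0.9955), *Steap2* (0.9940) and *Ercc6l* (0.9940). *Notch4* (*Mgat4a* 0.9806, *C5ar2* 0.9799, *Rab20* 0.9791) and *Hey1* (*Elovl4* 0.9872, *Insc* 0.9861, *Gpsm1* 0.9859) had no gene above 0.99.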

How the data were processed

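Poly(A) RNA was sequenced by the authors from 9 directional libraries, 3 per Fb type, as paired ends of 150 bp. Per the labels, the submitters' processing notes name FastQC 0.11.7, Trimmomatic 0.38, HISAT2 2.1.0 and featureCounts 1.6.3 and the build rn6. The annotation release and the strand setting are not given in the sources used here. The deposited raw counts per gene were tested, and the deposited TPM values, which scale those counts by gene length and library, were used for levels. An FPKM table was not used. Types were taken from the sample titles.

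All 9 libraries were fitted together in edgeR 4.0.16 (R 4.3.3) with TMM factors, the default filter on low counts and the quasi-likelihood F test, with Benjamini-Hochberg adjustment over all 13273 genes that passed. SE was computed as the log2 fold change over the root of F, and the 95% interval from the t distribution. The biological coefficient of variation was 8.25%, and TMM factors ran from 0.955 to 1.03. The code was tested on simulated data. Counting intervals and floors (3 counts) cover counting error only. Alternatives were DESeq2 1.42.0, limma 3.58.1 on log2(TPM + 1) and log2(TPM + 0.1), other scalings and filters, and leaving out each library. Tables were made in Python 3.11.15 with pandas 2.3.3, numpy 2.4.6 and scipy 1.17.1, and plots with matplotlib 3.10.9.

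The genes and lists were chosen with earlier results of these data known. All 10 Notch genes are named. Other pathway genes are named where the adjusted p was under 0.01, the log2 fold change beyond 1 in either direction and the mean TPM at least 1 in a type, at most the 12 with the largest difference, and for each Notch gene with a mean TPM of at least 1 in a type the 3 most similar genes. *Maml3*, *Ep300*, *Col1a2*, *Foxd3*, *Pecam1* and *Itgam* were not analysed here.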

Additional observations from a re-analysis of the deposited data

How the results depend on the processing

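Under 20 alternatives, the counts of called genes stayed within 1.5 times the reported ones in 175 cases and moved in 5. With at least 10 counts in every library required, *Notch4*, *Dll1*, *Hey1* and *Heyl* were no longer tested and gave no value, so 4 Notch genes were called for Fb-Epn against Fb-Skn and 4 for Fb-Par against Fb-Skn, with 1 DE gene for Fb-Epn against Fb-Par and 1 for Fb-Par against Fb-Skn. limma on log2(TPM + 1), which shrinks the differences of low genes, left 1 DE gene for Fb-Epn against Fb-Par. *Hey1* in Fb-Epn against Fb-Skn and *Dll1* in Fb-Epn against Fb-Par gave no value when only the types compared were fitted. Of the single log2 fold changes, 454 kept their direction and stayed called or not called, 9 lost the call and 3 reversed. Part of the 454 could hardly change. In some a library of a type not compared was left out, and in others only the threshold was relaxed to an adjusted p of 0.05. The reversed ones were *Hey1* in Fb-Epn against Fb-Skn, at -0.17, -0.06 and -0.10 (range -0.17 to 0.36 over libraries left out), which was called in no setting. The lost calls were *Dll1* in Fb-Epn against Fb-Skn, also with limma on log2(TPM + 0.1) (adjusted p = 0.017), and *Notch2* in Fb-Par against Fb-Skn with limma at either pseudocount (-0.15 and -0.16). On the TPM scale the median of all genes moved to 0.126 for Fb-Epn against Fb-Skn and 0.123 for Fb-Par against Fb-Skn, and the share of calls that were higher from 52.3% to 69.0% and from 50.8% to 66.9%. With libraries left out 1 at a time, 6 to 7, 6 and 8 Notch genes were called in Fb-Epn against Fb-Skn, Fb-Epn against Fb-Par and Fb-Par against Fb-Skn. The deviations of libraries with the same number had an r from -0.0804 to 0.0198, and those with different numbers from -0.0449 to 0.0893. These values gave no sign of a pairing by number and cannot exclude one. With the replicate number as a block, 6, 6 and 8 Notch genes and 30, 29 and 32 pathway genes were called, and *Dll1* in Fb-Epn against Fb-Skn had an adjusted p of 0.013. Depth limits *Jag2*, *Dll4*, *Dll1* and *Hey1* most.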
